A study of Homo sapiens with 5 samples.

Results

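The semaphorin family and its receptors were examined as 31 genes, which encode 20 semaphorins, 9 plexins and 2 neuropilins. Members were the entries of the deposited expression table whose gene symbol was one of the 31, and where a symbol had several entries, the entry with the highest mean over the libraries was taken. Of the 37181 entries in the table, 29 were members by this rule, and SEMA6D and PLXNB3 were not analysed here under their own names. Levels are in FPKM, the number of sequenced fragments per kilobase of transcript scaled to the total mapped in that library. Testing required a mean of 0.5 FPKM or more, which 20 members reached while 9 lay below it.

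Semaphorins are guidance proteins that share an extracellular sema domain. Class 3 proteins are secreted, classes 4 to 6 span the membrane, and SEMA7A is held on the surface by a lipid anchor. Plexins are the signalling receptors, whose cytoplasmic part acts on small GTPases of the RAS and RAP kind, and neuropilins are co-receptors that hold most class 3 semaphorins to A plexins and also bind vascular endothelial growth factors. First known for steering axons, the family also guides vessels and the movement of epithelial and tumour cells, and in the lung it takes part in branching of the airways.

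The study asked how lung adenocarcinoma cells that have acquired resistance to gefitinib, an inhibitor of the EGFR kinase, differ in their transcripts from the cells they came from. HCC827/GS cells are the gefitinib-sensitive parental HCC827 line, an established human lung adenocarcinoma line whose label gives an exon 19 deletion, and replicates 2 and 3 were used. HCC827/GR cells were raised from that line under stepwise increases of gefitinib for over 6 months, carry the same exon 19 label, and were represented by replicates 1, 2 and 3. HCC827/GR is 1 derived line, so gefitinib resistance and any other property of that line cannot be told apart, and nothing says that the replicates came from separate cultures, so p-values measure only the spread between these libraries.

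Each library gave 1 FPKM value per entry, and since FPKM carries no read counts, the depth is unknown. Between 8896 and 9803 entries were listed at 0 in a library. In bulk RNA, fewer cells of a kind and less RNA per cell cannot be told apart. Of the 9 epithelial markers listed for the labelled cell type, 7 were measured and all 7 were lower in HCC827/GR cells without overlap, beside 23.4% of all entries tested, 5 of them with an adjusted p under 0.05 by limma, beside 5.71%. Their summed level was between 460 and 591 FPKM in HCC827/GR libraries and was 1119 and 1227 FPKM in HCC827/GS libraries, with KRT18 the most abundant. EPCAM, an epithelial surface adhesion molecule, was at 7.32, 10.8 and 8.53 FPKM in replicates 1, 2 and 3 of HCC827/GR and at 86.9 and 72.6 FPKM in replicates 2 and 3 of HCC827/GS, the order in which values are given throughout. CDH2, which encodes N-cadherin, had 8.41, 6.85 and 9.95 FPKM in HCC827/GR and 0.415 and 0.645 FPKM in HCC827/GS. EPCAM and CDH2 each separated the groups of libraries, and resistance itself was not tested. The 7 fibroblast markers were each under 1 FPKM, with summed levels between 0.792 and 1.17 FPKM and COL1A1 the most abundant. Of 5 endothelial markers, CDH5, VWF, TEK and CLDN5 were near 0, and PECAM1, with a value of 0 in HCC827/GR, had 4.34 and 3.32 FPKM in HCC827/GS. Of 4 leukocyte markers measured, PTPRC, CD14 and LYZ were under 1 FPKM and CD68 had between 30.8 and 38.9 FPKM. Below 0.5 FPKM, PDGFRB was higher in HCC827/GR without overlap, at 0.278, 0.184 and 0.184 against 0.00777 and 0.0147 FPKM, and COL3A1, LUM, CDH5 and CD14, each at most 0.267 FPKM, were lower without overlap. The part of the epithelial markers, PECAM1 and these 5 markers in the results below was not tested.

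Across the family, SEMA6A, SEMA4D, SEMA4F and the receptor PLXND1 were higher in HCC827/GR cells and SEMA4B was lower, and the receptors with the highest levels, PLXNB2, NRP1, PLXNA1 and NRP2, did not pass the test. By limma on log2(FPKM + 1), with Benjamini-Hochberg adjustment over the 16189 entries tested, 4 of the 20 members had an adjusted p under 0.05 and were higher, beside 5.26% of all entries, and 1 was lower, beside 5.71% of all entries. The rule of the study asks for an unadjusted p under 0.05 and a fold of 2 or more, or of 0.5 or less. It was applied here with the p from limma in place of Ballgown and with the fold on the log2(FPKM + 1) scale. By it, 3 members were higher, beside 2.96% of entries, and 1 was lower, beside 3.97%. PLXNA3, with an unadjusted p of 0.0172 by limma, had a ratio of the mean FPKM of 2.12. It missed the rule as applied here through the scale of the fold. Of the 20 tested, the groups did not overlap in 9 members that were higher in HCC827/GR, against a background of 22.8%, and in 3 that were lower, against 23.4%. The 9 members below the filter leaned the other way, with 1 higher and 4 lower without overlap. No background share was computed for entries below the filter. The median log2 fold change over the members tested was 0.16, beside 0.00 over all entries. By family, 3 of 13 semaphorins tested rose and 1 fell with a median of 0.34, 1 of 5 plexins rose with a median of 0.22, and neither neuropilin passed the test, with a median of -0.28. SEMA6A and SEMA6C reached the mean of 0.5 FPKM only through their HCC827/GR values.

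**Figure D1:**
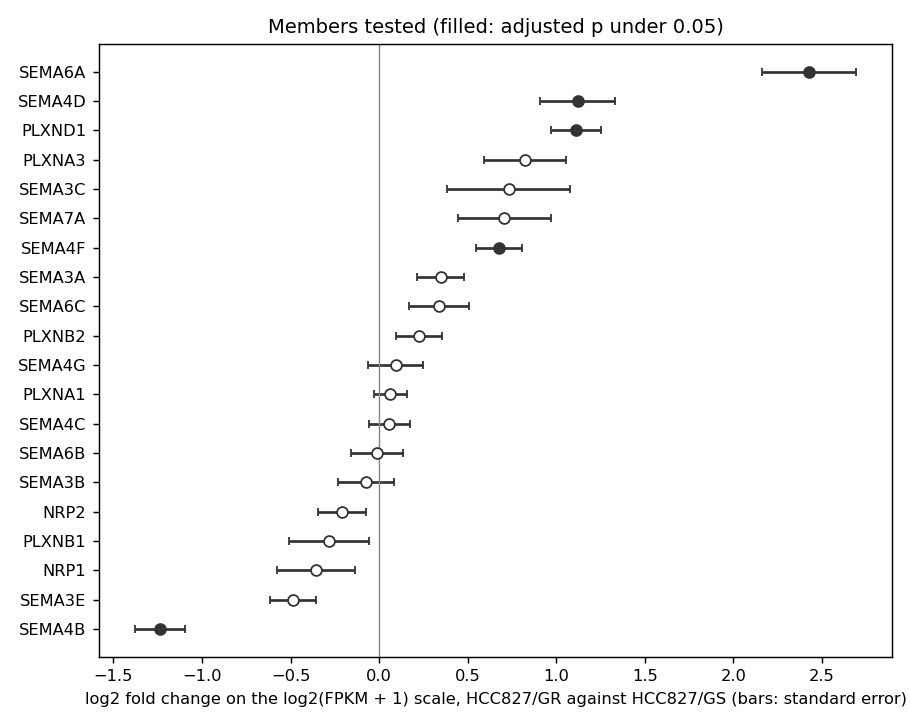
Log2 fold change of the 20 members tested, on the log2(FPKM + 1) scale, HCC827/GR (n = 3) against HCC827/GS (n = 2), with standard errors as bars and filled symbols for an adjusted p under 0.05 by limma. The 4 filled symbols on the right are SEMA6A, SEMA4D, PLXND1 and SEMA4F, SEMA4B is the filled symbol on the left, and open symbols such as PLXNA3 and SEMA3C lie further out than SEMA4F but have wider bars.

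FPKM is scaled by length, so levels of the members can be ordered. By the mean FPKM of the 5 libraries, PLXNB2 came first with 23.5, followed by NRP1 with 21.7, SEMA3C with 16.6, PLXNA1 with 12.0, NRP2 with 11.6 and SEMA4B with 10.4. The order differed between the groups, since NRP1 ranked 1 in both HCC827/GS libraries and 2 or 3 in HCC827/GR, SEMA3C ranked 6 in both HCC827/GS libraries and between 1 and 3 in HCC827/GR, and SEMA4B ranked 3 in HCC827/GS and 6 or 7 in HCC827/GR. Some neighbours in the pooled order overlapped in their library values, for example 19.3 to 27.3 FPKM for PLXNB2 and 14.4 to 26.1 FPKM for NRP1. Among the 19 semaphorins with a value, SEMA4B ranked 1 in HCC827/GS cells and 3 in HCC827/GR cells. SEMA6A ranked 18 in HCC827/GS cells and 4 in HCC827/GR cells. The summed FPKM of the semaphorins was 61.0, 54.2 and 68.8 in HCC827/GR and 49.4 and 49.8 in HCC827/GS. For the plexins it was 49.4, 54.7 and 44.4 in HCC827/GR and 43.7 and 39.0 in HCC827/GS. Both sums were higher in every HCC827/GR library (exact permutation test, two-sided, p = 0.2 for each, where 3 libraries against 2 allow no p below 0.1). The neuropilin sum was lower in every HCC827/GR library, at 26.8, 31.8 and 32.7 against 37.1 and 38.1 FPKM (exact permutation test, two-sided, p = 0.1).

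**Figure D2:**
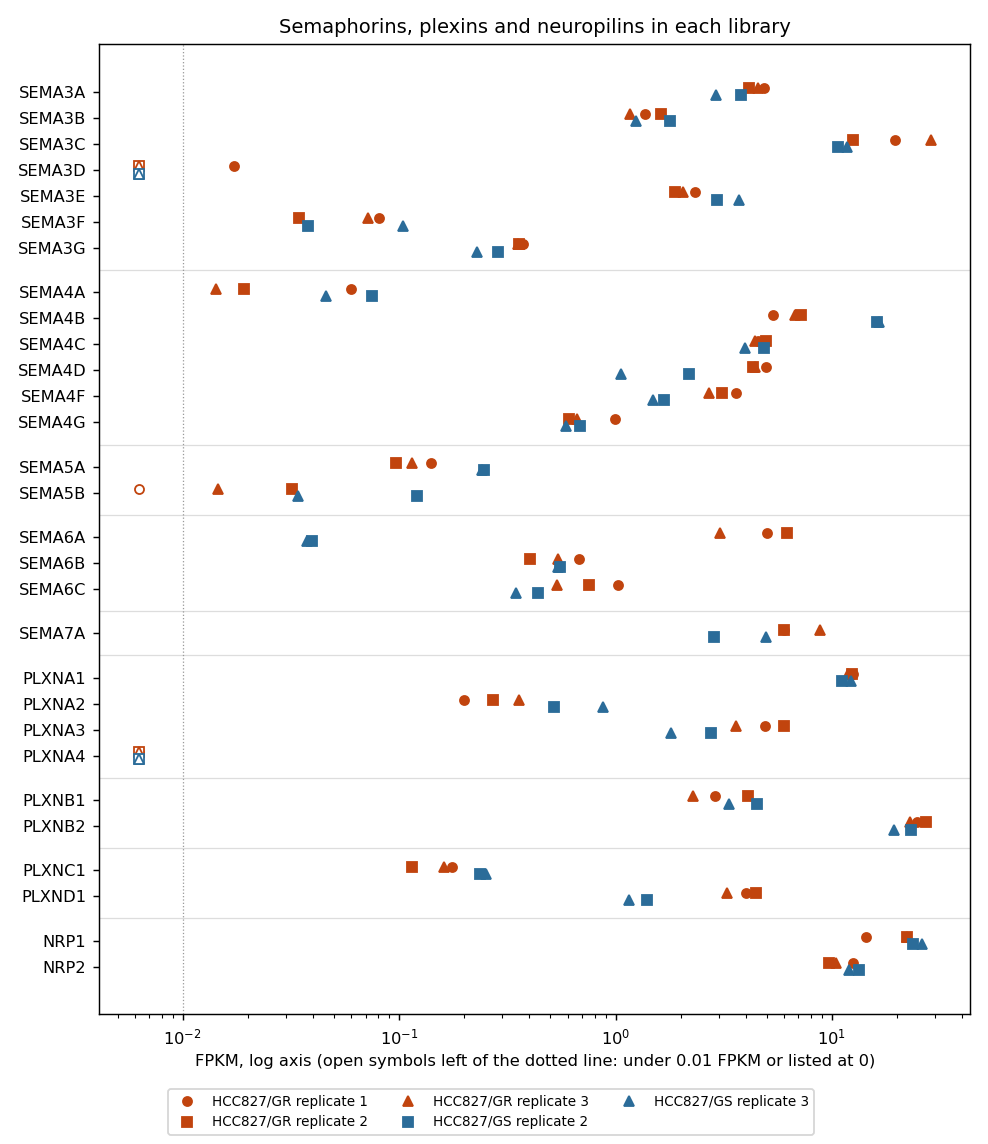
FPKM of each member with an entry, on a log axis, in each of the 5 libraries, with HCC827/GR in orange and HCC827/GS in blue and the members ordered by class. SEMA6A is set apart by nearly 2 decades of the axis, at 3.03 to 6.19 against 0.0397 and 0.0373 FPKM, whereas PLXNA1 and SEMA4C show mixed symbols.

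Among the secreted class 3 ligands, none of the 4 tested passed the test and 3 lay below 0.5 FPKM. SEMA3C, which can signal through either neuropilin and through PLXND1, was the most abundant, with 19.6, 12.5 and 28.7 FPKM in HCC827/GR and 10.6 and 11.7 FPKM in HCC827/GS. All HCC827/GR values lay above the HCC827/GS values, but HCC827/GR replicate 2 lay within 1 FPKM of HCC827/GS replicate 3, and the log2 fold change of 0.73 had a standard error of 0.35 and an adjusted p of 0.261 by limma. SEMA3A, the ligand of NRP1 and A plexins that makes growth cones collapse, ranged from 4.12 to 4.87 FPKM in HCC827/GR and had 3.81 and 2.90 FPKM in HCC827/GS (log2 fold change 0.35, adjusted p = 0.184 by limma). SEMA3E, which binds PLXND1 without a neuropilin, ranged the other way, from 1.88 to 2.33 FPKM against 2.96 and 3.71 FPKM (log2 fold change -0.49, adjusted p = 0.0856 by limma). SEMA3B, a ligand encoded in a region of chromosome 3 that is often lost in lung cancer, ranged from 1.17 to 1.79 FPKM over all libraries and the groups overlapped. SEMA3F, a ligand of NRP2 from the same region, was between 0.0344 and 0.104 FPKM, and SEMA3D had 0.0173 FPKM in HCC827/GR replicate 1 and a value of 0 elsewhere. SEMA3G, another NRP2 ligand, had between 0.353 and 0.373 FPKM in HCC827/GR and 0.286 and 0.228 FPKM in HCC827/GS. By GENCODE release 29 on GRCh38, SEMA3C, SEMA3E, SEMA3A and SEMA3D lie in that order on chromosome 7 between 80742538 and 85186855, all on the minus strand.

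The membrane-bound class 4 held both directions of change, with SEMA4D and SEMA4F higher and SEMA4B lower in HCC827/GR cells. SEMA4B, whose cytoplasmic tail binds postsynaptic scaffold proteins, had 5.32, 7.21 and 6.74 FPKM in HCC827/GR and 16.2 and 16.6 FPKM in HCC827/GS. Both HCC827/GS values were more than 2 times every HCC827/GR value. The means were 6.42 ± 0.981 FPKM (SD, n = 3) and 16.4 ± 0.256 FPKM (SD, n = 2), a log2 fold change of -1.24 with a standard error (SE) of 0.14. The adjusted p was 0.0126 by limma. SEMA4D, also known as CD100, is a ligand of PLXNB1 that can be shed from the surface. It had 4.96, 4.31 and 4.42 FPKM in HCC827/GR and 2.18 and 1.06 FPKM in HCC827/GS. The HCC827/GR values lay close together and above both HCC827/GS values, which differed from each other about 2-fold. The log2 fold change was 1.12 (SE 0.21, adjusted p = 0.0385 by limma). The call was lost with a pseudocount of 0.1 (adjusted p = 0.0512), with its entries summed (0.0506) and without the filter on low values (0.0778). SEMA4F, known from neurons and Schwann cells, had 3.61, 3.12 and 2.70 FPKM in HCC827/GR and 1.67 and 1.49 FPKM in HCC827/GS. Its groups did not overlap, and the log2 fold change was 0.68 (SE 0.13, adjusted p = 0.0405 by limma), which is 1.60-fold and short of the 2-fold rule. Without the filter its adjusted p was 0.0822. The 2 other members tested had groups that overlapped, namely SEMA4C, a ligand of PLXNB2, between 3.98 and 4.94 FPKM, and SEMA4G between 0.589 and 0.992 FPKM. SEMA4G shares 1170 exon bases with MRPL43 on the other strand, and no source used here says that the counting used the strand. SEMA4A stayed between 0.0143 and 0.0752 FPKM.

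**Figure D3:**
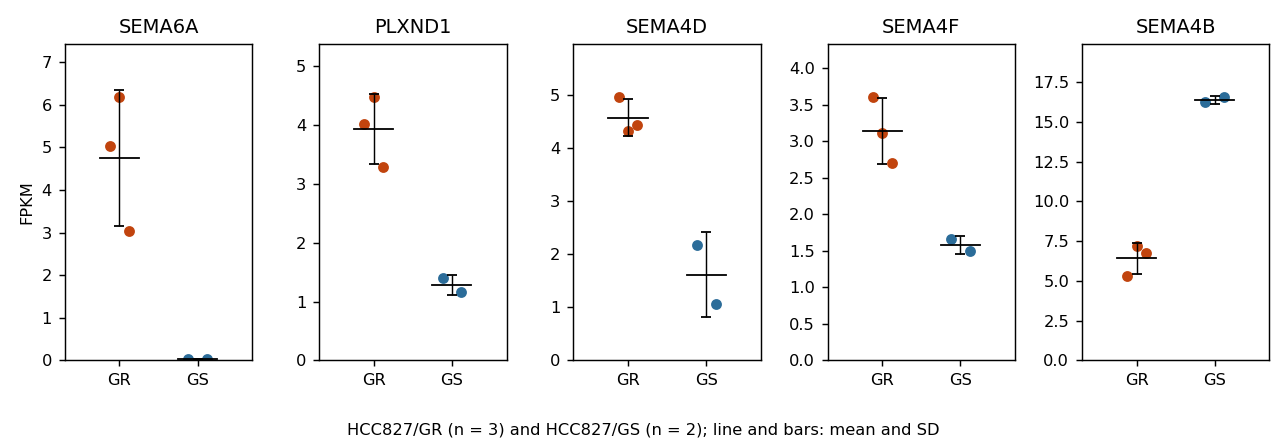
FPKM of the 5 members with an adjusted p under 0.05 in each library (points), with the mean as a line and the SD as bars, for HCC827/GR (n = 3) and HCC827/GS (n = 2). Each panel has its own axis from 0, and in each the groups are apart, with SEMA4B the one member that is lower in HCC827/GR.

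Class 4 took 32.0%, 37.3% and 27.5% of the summed semaphorin FPKM in HCC827/GR replicates 1, 2 and 3 and 51.9% and 47.7% in HCC827/GS replicates 2 and 3. The groups did not overlap (exact permutation test, two-sided, p = 0.1, adjusted p = 0.225 over the 9 shares tested). Class 6 took 11.0%, 13.6% and 5.97% against 2.09% and 1.86%, again with no overlap (p = 0.2, adjusted p = 0.36 by the same exact test). The class 6 sum was 6.73, 7.34 and 4.11 FPKM in HCC827/GR, of which SEMA6A alone gave 5.03, 6.19 and 3.03 FPKM. The class 6 share therefore largely repeats the change of that member. Class 3 took between 37.9% and 53.6% over all libraries and overlapped between the groups.

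**Figure D4:**
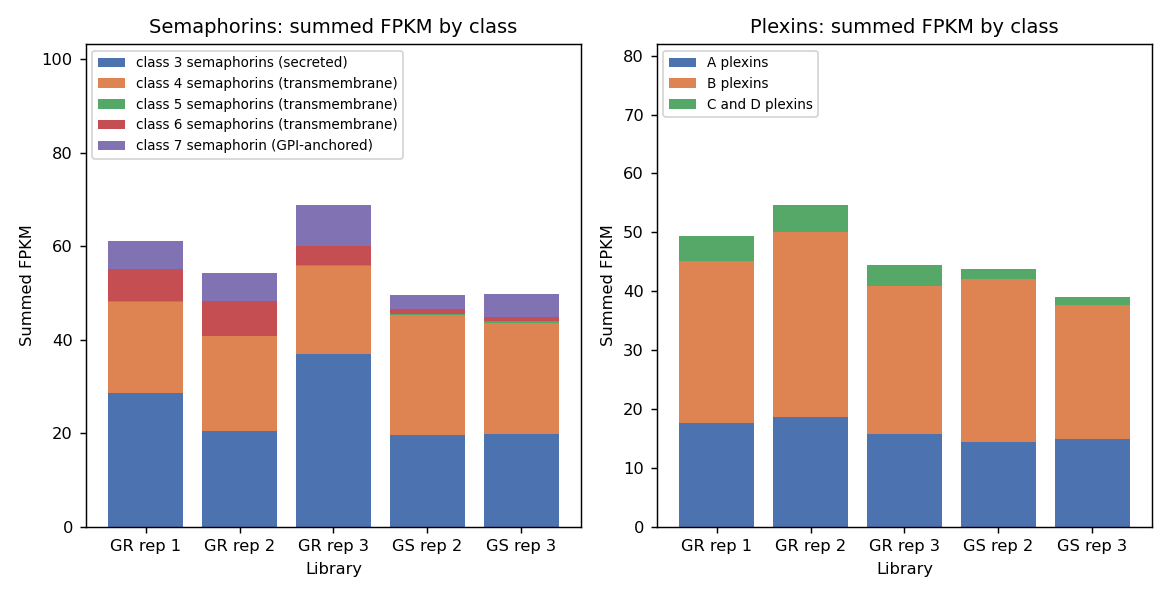
Summed FPKM of the semaphorins (left) and the plexins (right) in each library, stacked by class, with GR for HCC827/GR, GS for HCC827/GS and rep for replicate. The class 4 layer is the widest one in both HCC827/GS libraries, and the B plexins are the widest layer of the plexins in every library. The class 6 layer is 4.11 to 7.34 FPKM in HCC827/GR, most of it SEMA6A, against 1.03 and 0.927 FPKM in HCC827/GS.

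Class 6 held the member with the largest log2 fold change of the 20 tested, and no member of classes 5 and 7 passed the test. SEMA6A, a membrane-bound ligand of PLXNA2 and PLXNA4, had 5.03, 6.19 and 3.03 FPKM in HCC827/GR and 0.0397 and 0.0373 FPKM in HCC827/GS. It was near 0 in both HCC827/GS libraries and around the level of SEMA4D in HCC827/GR. The log2 fold change was 2.43 (SE 0.27, adjusted p = 0.0120 by limma), and on this scale it understates the change of a gene that is near 0 in a group. The ratio of the mean FPKM, chosen as an alternative after the data were seen, gave 6.94 on the log2 scale, and a pseudocount of 0.1 FPKM gave 5.07. SEMA6A lies on the minus strand of chromosome 5 from 116443616 to 116574934 (GRCh38) and shares 268 and 58 exon bases with SEMA6A-AS1 and SEMA6A-AS2 on the other strand. It has 10956 exon bases in all, and the part of reads on the shared bases was not tested. SEMA6B, a ligand of PLXNA4, ranged from 0.401 to 0.678 FPKM and its groups overlapped. SEMA6C ranged from 0.539 to 1.02 FPKM in HCC827/GR and had 0.439 and 0.349 FPKM in HCC827/GS (log2 fold change 0.34, adjusted p = 0.288 by limma). SEMA7A, the lipid-anchored ligand of PLXNC1 and of integrins that contain the beta 1 chain, had 5.98, 5.99 and 8.79 FPKM in HCC827/GR and 2.84 and 4.97 FPKM in HCC827/GS. Its groups did not overlap, but HCC827/GR replicates 1 and 2 lay closer to HCC827/GS replicate 3 than to HCC827/GR replicate 3, and the log2 fold change of 0.71 (SE 0.26) had an adjusted p of 0.174 by limma. Class 5 lay below 0.5 FPKM, and its more abundant member SEMA5A, whose extracellular part carries thrombospondin repeats, had 0.141, 0.0964 and 0.115 FPKM in HCC827/GR and 0.248 and 0.242 FPKM in HCC827/GS. SEMA5B was at or below 0.121 FPKM in every library.

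Of the receptors, only PLXND1 among the 5 plexins tested passed the test. PLXND1, the receptor of SEMA3E known from developing vessels, had 4.02, 4.48 and 3.29 FPKM in HCC827/GR and 1.40 and 1.15 FPKM in HCC827/GS. Every HCC827/GR value was more than 2 times every HCC827/GS value. The means were 3.93 ± 0.600 FPKM (SD, n = 3) and 1.27 ± 0.170 FPKM (SD, n = 2). The log2 fold change was 1.11 (SE 0.14, adjusted p = 0.0162 by limma). PLXNC1, the receptor of SEMA7A, was between 0.115 and 0.175 FPKM in HCC827/GR and had 0.235 and 0.252 FPKM in HCC827/GS. C and D plexins together took 8.49%, 8.40% and 7.77% of the plexin FPKM in HCC827/GR and 3.73% and 3.60% in HCC827/GS (exact permutation test, two-sided, p = 0.1, adjusted p = 0.225).

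The B plexins, receptors of class 4 semaphorins, were the most abundant plexins by sum. They took 55.7%, 57.4% and 56.7% of the plexin FPKM in HCC827/GR and 63.4% and 58.0% in HCC827/GS, with no overlap (exact permutation test, two-sided, p = 0.1, adjusted p = 0.225). The difference in this share, HCC827/GR minus HCC827/GS, was -4.06 percentage points. It was -1.37 without HCC827/GS replicate 2 and -6.75 without HCC827/GS replicate 3. The summed FPKM of the B plexins overlapped, at 27.5, 31.4 and 25.1 against 27.7 and 22.6 (p = 0.5 by the same exact test). PLXNB2, the receptor of SEMA4C, had 24.6, 27.3 and 22.8 FPKM in HCC827/GR and 23.2 and 19.3 FPKM in HCC827/GS. The groups overlapped, and the log2 fold change was 0.22 (SE 0.13, adjusted p = 0.350 by limma). PLXNB1, the receptor of SEMA4D, which forms complexes with MET and ERBB2, ranged from 2.29 to 4.52 FPKM with overlapping groups (log2 fold change -0.28, adjusted p = 0.493 by limma). PLXNB3 is covered only by an entry named SRPK3, in which 8 of 12 annotated transcripts are of PLXNB3, and this joined entry had 2.44, 2.81 and 1.91 FPKM in HCC827/GR and 2.30 and 1.31 FPKM in HCC827/GS.

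The A plexins transmit class 3 signals with the neuropilins and bind class 6 semaphorins directly. PLXNA1 had 12.6, 12.4 and 11.8 FPKM in HCC827/GR and 11.1 and 12.3 FPKM in HCC827/GS. The groups overlapped, with a log2 fold change of 0.06 (SE 0.09, adjusted p = 0.723 by limma). PLXNA3 ranged from 3.62 to 6.01 FPKM in HCC827/GR and had 2.75 and 1.81 FPKM in HCC827/GS, with no overlap (log2 fold change 0.83, adjusted p = 0.0991 by limma). The 2 receptors named for SEMA6A were low, since PLXNA2 ranged from 0.199 to 0.357 FPKM in HCC827/GR with 0.521 and 0.877 FPKM in HCC827/GS, and PLXNA4 had 0.00222 FPKM in HCC827/GR replicate 2 and was listed at 0 elsewhere.

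Neither neuropilin passed the test. NRP1, the co-receptor of SEMA3A and of vascular endothelial growth factor A, had 14.4, 22.2 and 22.3 FPKM in HCC827/GR and 23.8 and 26.1 FPKM in HCC827/GS. All HCC827/GR values were lower, but HCC827/GR replicates 2 and 3 lay within 2 FPKM of HCC827/GS replicate 2, and the log2 fold change of -0.36 (SE 0.22) had an adjusted p of 0.373 by limma. Without HCC827/GR replicate 1, the lowest library, it was -0.16. NRP2, the co-receptor of SEMA3F, ranged from 9.66 to 13.3 FPKM with overlapping groups (log2 fold change -0.21, adjusted p = 0.391 by limma).

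The 5 calls differed in how they stood when a library was left out, in fits that assume the lone sample of a group varies like the others. SEMA4B kept its call without any 1 HCC827/GR library, but its adjusted p was 0.0831 without HCC827/GS replicate 2 and 0.0772 without HCC827/GS replicate 3. SEMA6A kept a log2 fold change between 2.25 and 2.66, with an adjusted p of 0.0558 without HCC827/GR replicate 1, 0.0851 without HCC827/GS replicate 2 and 0.0772 without HCC827/GS replicate 3. PLXND1 passed without HCC827/GR replicate 3 (adjusted p = 0.0369) and had an adjusted p of 0.0682 and 0.0523 without HCC827/GR replicates 1 and 2 and of 0.0832 and 0.0911 without HCC827/GS replicates 2 and 3. SEMA4D passed without HCC827/GS replicate 2 (adjusted p = 0.0398), and elsewhere its adjusted p rose as high as 0.117, with the lowest log2 fold change, 0.81, without HCC827/GS replicate 3. SEMA4F lost the call with any 1 library left out, with adjusted p between 0.0585 without HCC827/GR replicate 3 and 0.156 without HCC827/GS replicate 3. All 5 kept their direction in each of these fits. Of the members not called, the log2 fold change ran from 0.39 without HCC827/GS replicate 2 to 1.03 without HCC827/GS replicate 3 for SEMA7A. It ran from 0.46 to 1.02 for SEMA3C, from 0.20 to 0.50 for SEMA3A and from 0.098 to 0.35 for PLXNB2. For PLXNB1 it ran from -0.46 to -0.11, and for NRP2 from -0.30 to -0.14.

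The promoters of PLXND1, SEMA4D and SEMA4F are shown because these members rose and have 1 RefSeq window each, of 250 bases before to 50 bases after the annotated start. Sequences are from RefSeq (GRCh38.p14), 5′ to 3′ on the strand of the gene. PLXND1 is at chr3:129606627-129606926 on the minus strand, SEMA4D at chr9:89495607-89495906 on the minus strand and SEMA4F at chr2:74653997-74654296 on the plus strand. Capitals mark CACCTG, an E-box of the form that ZEB and SNAI repressors bind, and GGGCGG, the GC box that SP1 binds, on either strand.
PLXND1: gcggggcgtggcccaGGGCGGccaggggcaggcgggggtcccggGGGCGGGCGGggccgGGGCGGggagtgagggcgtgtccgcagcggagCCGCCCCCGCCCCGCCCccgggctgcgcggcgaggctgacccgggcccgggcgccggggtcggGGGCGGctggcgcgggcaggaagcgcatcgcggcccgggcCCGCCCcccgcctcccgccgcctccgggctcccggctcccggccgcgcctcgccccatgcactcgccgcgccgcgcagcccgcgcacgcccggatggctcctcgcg
SEMA4D: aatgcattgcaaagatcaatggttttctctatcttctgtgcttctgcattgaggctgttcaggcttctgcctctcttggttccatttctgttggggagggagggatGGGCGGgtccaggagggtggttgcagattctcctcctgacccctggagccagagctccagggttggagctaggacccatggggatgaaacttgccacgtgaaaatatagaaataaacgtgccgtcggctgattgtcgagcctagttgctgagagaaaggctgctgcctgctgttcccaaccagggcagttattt
SEMA4F: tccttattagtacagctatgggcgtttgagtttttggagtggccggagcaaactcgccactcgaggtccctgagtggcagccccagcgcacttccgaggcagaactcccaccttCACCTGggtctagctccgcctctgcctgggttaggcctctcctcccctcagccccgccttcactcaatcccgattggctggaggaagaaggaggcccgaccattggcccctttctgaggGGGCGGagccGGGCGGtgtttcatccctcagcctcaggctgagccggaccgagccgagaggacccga

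All 3 windows held GGGCGG and differed in the number of matches. PLXND1 had 9 matches to GGGCGG, some of them overlapping each other, and none to CACCTG, with 87.3% G and C. SEMA4D had 1 match to GGGCGG and none to CACCTG, with 52.3% G and C, and SEMA4F had 2 and 1, with 63% G and C. The median over all 35116 RefSeq windows of this length was 58.7% G and C. Windows were available for 27 of the 31 family genes, SEMA6D and PLXNB3 among them. Of these 48 windows, 31 held GGGCGG, or 64.6% beside 45% of all windows, and 8 held CACCTG, or 16.7% beside 20.6% of all windows. TGANTCA, the site of AP-1 factors, was in 1 of the 48 windows, beside 7.71% of all windows, and TATAAA, the TATA box, in 1, beside 11.5%. Such matches describe the letters in these windows and are neither binding sites nor causes.

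Genes that act with the family, and genes of other guidance systems, were taken from 4 lists and are called partner genes here. Of 88 listed genes, 53 were tested. By the adjusted p, 11 rose, beside 5.26% of all entries, and 5 fell, beside 5.71%. The list of other guidance systems (netrin, slit and RGM genes) gave 3 of those that rose and 2 of those that fell. The median log2 fold change was 0.13, beside 0.00 over all entries. The shares of all entries are the background of each list, and 28 of the 81 genes with an entry lay below 0.5 FPKM. Among co-receptors and ligands or receptors that share neuropilins or plexins, 1 of 11 fell, beside 5.71% of all entries, none rose, beside 5.26%, and the median was -0.21. The one that fell was MST1R, the RON receptor kinase that can associate with B plexins, with 1.41, 1.23 and 1.54 FPKM in HCC827/GR and 6.70 and 4.87 FPKM in HCC827/GS. Its HCC827/GS values were more than 3 times the HCC827/GR values (log2 fold change -1.49, standard error 0.15, adjusted p = 0.0109 by limma).

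Cytoplasmic effectors of plexins made up 31 of the genes tested, of which 8 rose, beside 5.26% of all entries, and 1 fell, beside 5.71%, with a median of 0.14. CRMP1, a collapsin response mediator protein that acts downstream of SEMA3A, had 4.41, 6.60 and 5.46 FPKM in HCC827/GR and 1.53 and 1.40 FPKM in HCC827/GS (log2 fold change 1.38, standard error 0.17, adjusted p = 0.0145 by limma). DPYSL5, a relative of CRMP1, had 3.15, 2.16 and 1.88 FPKM in HCC827/GR and was near 0 in HCC827/GS, at 0.00527 and 0.0208 FPKM. Its log2 fold change was 1.73 (adjusted p = 0.0120 by limma), and it reached the mean of 0.5 FPKM only through HCC827/GR. FYN, a SRC family kinase that associates with A plexins, had 4.09, 2.79 and 4.04 FPKM against 0.822 and 0.745 FPKM (log2 fold change 1.37, adjusted p = 0.0147 by limma). RRAS2, a GTPase of the R-RAS group on which the plexin cytoplasmic domain acts, had 16.3, 16.1 and 17.1 FPKM against 5.77 and 9.44 FPKM (log2 fold change 1.06, adjusted p = 0.0409 by limma). The 4 were named for their change, and for RRAS2 the 2 HCC827/GS libraries were further apart than the HCC827/GR libraries. The other effectors called, named after their values were seen, were FARP1, RND3, CDK5 and PAK2, which rose with log2 fold changes from 0.56 to 0.99, and the RAC activator TIAM1, which fell by 0.89 on the log2 scale.

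**Figure D5:**
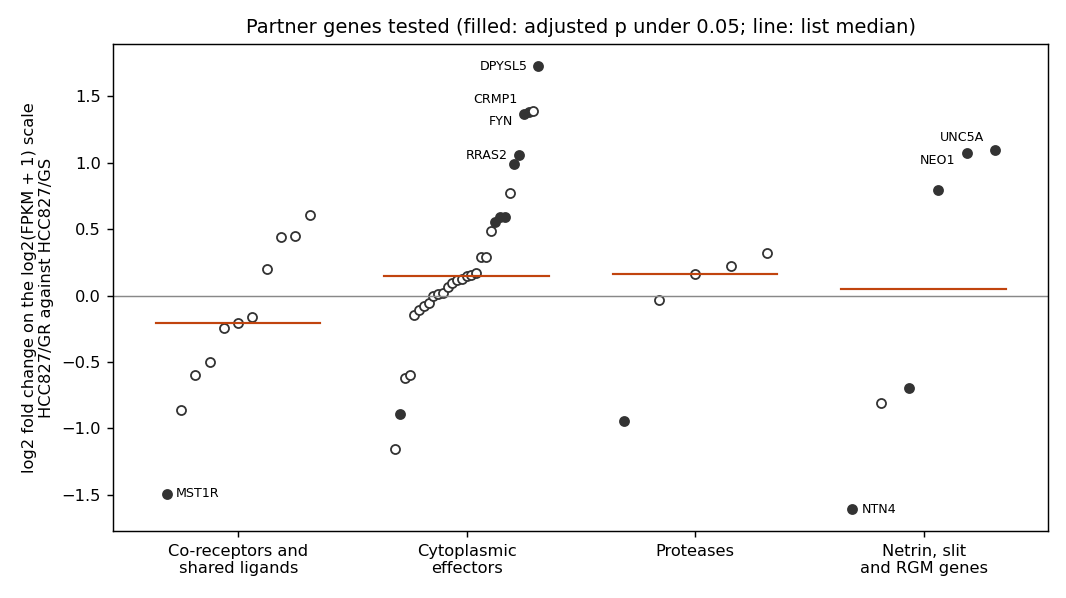
Log2 fold change on the log2(FPKM + 1) scale, HCC827/GR against HCC827/GS, of the 53 partner genes tested, in order of change within each list, with filled symbols for an adjusted p under 0.05 by limma and a line at the list median. Names are given for the 8 genes called with a log2 fold change of at least 1 in size, and the medians lie between -0.21 and 0.16.

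Of 5 proteases that cut semaphorins, 1 fell, beside 5.71% of all entries, with a list median of 0.16. This was the proprotein convertase PCSK6, named after its values were seen, with a log2 fold change of -0.95 (adjusted p = 0.0194 by limma), and it reached the mean of 0.5 FPKM only through HCC827/GS. Netrin, slit and RGM genes, which encode other guidance systems, had 3 of 6 that rose, beside 5.26% of all entries, and 2 that fell, beside 5.71%, with a median of 0.05. The other 12 of the 18 genes with an entry lay below 0.5 FPKM. NTN4, a secreted netrin of basement membranes, had 6.08, 5.15 and 5.72 FPKM in HCC827/GR and 20.7 and 17.9 FPKM in HCC827/GS, a log2 fold change of -1.61 (SE 0.12, adjusted p = 0.00521 by limma). NEO1, a receptor of netrins and RGM proteins, had 10.0, 11.0 and 9.91 FPKM against 4.61 and 4.16 FPKM, a log2 fold change of 1.07 (SE 0.10, adjusted p = 0.00862 by limma). UNC5A, a netrin receptor of the UNC5 family, had 1.37, 1.21 and 1.52 FPKM against 0.113 and 0.103 FPKM, a log2 fold change of 1.09 (adjusted p = 0.0133 by limma), and it reached the filter only through HCC827/GR. These 3 were named for their change, and the HCC827/GR libraries lay close together in each. The other genes called, named after their values were seen, were NTNG2, which rose by 0.79, and SLIT2, a ligand of ROBO receptors, which fell by 0.70 on the log2 scale. NTNG2 reached the filter only through HCC827/GR and SLIT2 only through HCC827/GS.

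With each library left out in turn, NTN4 and NEO1 kept an adjusted p under 0.05 every time, the highest being 0.0398 and 0.0489. MST1R lost the call without HCC827/GR replicate 1 (adjusted p = 0.0530), and DPYSL5 lost it without HCC827/GS replicate 2 or 3 (0.0818 and 0.0713). CRMP1 lost it without HCC827/GS replicate 2 or 3 or HCC827/GR replicate 3, with adjusted p up to 0.0898. FYN kept it only without HCC827/GR replicate 2 and RRAS2 only without HCC827/GS replicate 3, with adjusted p up to 0.0910 and 0.118 otherwise, and UNC5A lost it without any 1 library, with adjusted p between 0.0525 and 0.0670.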

How the data were processed

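Total RNA of HCC827/GR (n = 3) and HCC827/GS (n = 2) libraries was sequenced. The authors deposited FPKM per gene or assembled locus after Cutadapt, FastQC, Bowtie2, TopHat2, StringTie and Ballgown, with versions not given in the sources used here. The submitters' processing notes name hg18, the table holds no coordinates, and positions come from GENCODE release 29 (GRCh38) matched by symbol. The labels describe a small-RNA, single-end library, whereas the study's methods describe an rRNA-depleted, paired-end one, and read layout and instrument were not settled here. The 1 FPKM column that matched no sample, named GS_1, was not used.

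Values were compared with limma 3.58.1 in R 4.3.3 (moderated two-sided test, mean-variance trend) after taking log2(FPKM + 1), in entries whose mean reached 0.5 FPKM, and p-values were adjusted over all of them by the Benjamini-Hochberg method. A fold change is on this scale and understates low genes. Shares used an exact permutation test. Python 3.11.15 with pandas 2.3.3, numpy 2.4.6, scipy 1.17.1 and matplotlib 3.10.9 was used. The fit was tested on simulated data. Full values were given for members with an adjusted p under 0.05 and for the most abundant member of each class, and partner genes were named at an adjusted p under 0.05 and a log2 fold change of at least 1 in size. Members and lists were chosen with earlier results of these data known. The alternatives changed the pseudocount to 0.1, dropped the filter or raised it to 1 FPKM, and used median-ratio and quantile scaling, limma without the trend, a covariate made from each library's summed log FPKM, a replicate block, summed entries, and each library left out. The log2 ratio of mean FPKM was added after the data were seen.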

Additional observations from a re-analysis of the deposited data

How the results depend on the processing

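With no filter on low values, 2 members rose in place of 4, 7 partner genes rose and 3 fell in place of 11 and 5, and 504 entries rose in place of 851. With a covariate formed in each library as the sum of logged FPKM up to the upper quartile, in the manner of Ballgown, and an ordinary F test on 2 residual degrees of freedom, 1 member rose and 0 fell, 0 partner genes rose and 0 fell, and 4 entries rose and 9 fell in place of 851 and 924. Replicate numbers 2 and 3 occur in both groups. The difference of replicate 2 minus replicate 3 in HCC827/GR correlated at 0.0274 with that in HCC827/GS across 16189 entries. This correlation cannot tell whether same-numbered libraries shared a culture or a batch. The fit with the number as a replicate block, which leaves 1 residual degree of freedom, called 0 members, 0 partner genes and 0 entries in either direction. With 1 library left out, between 0 and 2 members rose and between 0 and 1 fell, between 1 and 5 partner genes rose and between 1 and 2 fell, and between 181 and 450 entries rose and between 248 and 434 fell. Fewer samples entered those fits. The cause of the other losses was not tested.

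The direction of 5 members that did not pass the test turned. The log2 fold change of SEMA3B became 0.0028 with the covariate, and that of SEMA6B 0.048 under quantile normalization and 0.039 with the covariate. That of SEMA4G became -0.00074 with the replicate block. Replicate 1 occurs only in HCC827/GR, so the block gives the same estimate as leaving that library out and is not a separate result. With 1 library left out, it ran from -0.23 to 0.085 for SEMA3B (positive without HCC827/GS replicate 2), from -0.061 to 0.18 for SEMA4C (negative without HCC827/GS replicate 3), from -0.00074 to 0.15 for SEMA4G (negative without HCC827/GR replicate 1), from -0.075 to 0.055 for SEMA6B (positive without HCC827/GR replicate 2) and from -0.0049 to 0.13 for PLXNA1 (negative without HCC827/GS replicate 2). The difference in the A plexin share, HCC827/GR minus HCC827/GS, was -0.49 percentage points, then ran from -3.24 to 2.26 and was 0.017 without HCC827/GR replicate 2, and that in the NRP1 share was -2.54 and ran from -5.50 to 2.56, positive without HCC827/GR replicate 1. Without the filter RRAS2 had an adjusted p of 0.0775 by limma. The 5 members called kept their direction under every alternative run. Depth limits the precision to an unknown extent, since FPKM carries no counts.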

Other observations

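The protein-coding genes that flank the 5 members called, 3 tested on each side, were examined on GRCh38. Of these 30 genes 2 were called, 1 in each direction, which is near the background of 5.26% of all entries higher and 5.71% lower. Around SEMA6A on chromosome 5 none of the 6 was called, and their log2 fold changes ran from -0.14 to 0.70 with a median of 0.07. Around SEMA4B, at 90160604 to 90229679 on chromosome 15, 1 of 6 was called, namely IDH2, the mitochondrial isocitrate dehydrogenase, which rose while SEMA4B fell (log2 fold change 1.18, standard error 0.14, adjusted p = 0.0134 by limma). Around SEMA4D on chromosome 9, 1 of 6 was called, namely SYK, a cytoplasmic tyrosine kinase, which fell while SEMA4D rose (log2 fold change -1.44, standard error 0.15, adjusted p = 0.0115 by limma). Both were named after their values were seen. None was called around SEMA4F on chromosome 2 or PLXND1 on chromosome 3, with medians of -0.00 and -0.17.

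SEMA4D and SEMA6A each had a second entry in the table. The second SEMA4D entry had 1.60, 1.21 and 1.22 FPKM in HCC827/GR and 0.991 and 0.608 FPKM in HCC827/GS, so it too was higher in each HCC827/GR library. The second SEMA6A entry had 1.52 FPKM in HCC827/GR replicate 2 and a value of 0 elsewhere.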
